A study of Mus musculus with 8 samples.

Results

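Transcripts of 9 genes that mark fibroblasts and are not collagens were followed in tumors grown under the back skin of WT mice and of *Ccrl2* KO mice. The genes were taken by their symbols, *Dcn*, *Lum*, *Postn*, *Fbln1*, *Fbln2*, *Mfap5*, *Fap*, *Pdpn* and *Thy1*, and all 9 were found among the 47729 genes of the table. The set was chosen with earlier results of these data known. B16 melanoma (B16-F0) and Lewis lung carcinoma (LLC), both murine cell lines, were each grafted in syngeneic C57BL/6 mice (C57BL/6J in the methods), which gave 4 groups: B16 WT, B16 KO, LLC WT and LLC KO. WT and KO describe *Ccrl2* in the host only, as the grafted cells kept the gene in every group, and CCRL2 is a non-signaling receptor that binds the chemoattractant chemerin. A group consisted of 2 libraries (n = 2) of pooled RNA, with 3 tumors to a pool, so that the spread given here is the spread between pools. The labels give a graft of 5 days for all groups, while a figure legend of the study gives an earlier day for B16, so that tumor line and age of the graft cannot be told apart if that legend holds. The labels give neither the age nor the sex of the hosts, and the methods describe young adult mice in general.

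Fibroblasts are the cells of connective tissue that make and remodel the extracellular matrix, and in a tumor they form much of the stroma together with vessels and leukocytes. The 9 genes cover several of their functions. Decorin (*Dcn*) and lumican (*Lum*) are small leucine-rich proteoglycans that bind collagen and set the width of its fibrils. Periostin (*Postn*) is a matricellular protein, abundant in matrix that is being remodeled. Fibulin 1 and fibulin 2 (*Fbln1*, *Fbln2*) join basement membranes and elastic fibers, and the product of *Mfap5* is a component of the microfibrils on which elastin is laid down. The last 3 genes encode proteins of the cell surface: *Fap*, a serine protease of activated fibroblasts, *Pdpn* (podoplanin), a mucin-like glycoprotein also made by lymphatic endothelium, and *Thy1*, a glycoprotein anchored by a lipid and also carried by T cells of the mouse.

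Positions are those of the mouse reference GRCm38. *Dcn* (ENSMUSG00000019929, chromosome 10, 97479609 to 97518143) and *Lum* (ENSMUSG00000036446, chromosome 10, 97565128 to 97572703) are neighbors on the plus strand, 46984 bases apart. *Kera*, which encodes keratocan, a proteoglycan of the same family, is the next of these genes on that strand. *Fbln2* (ENSMUSG00000064080, 91212455 to 91272540) and *Mfap5* (ENSMUSG00000030116, 122505845 to 122529290) share chromosome 6. *Postn* (ENSMUSG00000027750) is on chromosome 3 from 54361109 to 54391037, *Fbln1* (ENSMUSG00000006369) on chromosome 15 from 85205949 to 85286535, and *Thy1* (ENSMUSG00000032011) on chromosome 9 from 44043384 to 44048579. *Fap* (ENSMUSG00000000392, chromosome 2, 62500943 to 62574075) and *Pdpn* (ENSMUSG00000028583, chromosome 4, 143267431 to 143299564) are on the minus strand.

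Promoter windows of RefSeq (build GRCm38.p6, 250 bases before and 50 bases after an annotated start) were matched for 4 of the 9 genes. All 4 are shown, and no window was matched for the other 5 genes. In the results below, *Postn*, *Fbln1* and *Fbln2* fell in LLC tumors of *Ccrl2* KO mice, and *Pdpn* did not pass the test there. Of the 9 genes, *Fbln1* alone was higher in B16 than in LLC. Each line reads 5′ to 3′ on the strand of the gene, and capitals mark a TATA box (TATAAA), an AP-1 motif (TGANTCA), a GC box (GGGCGG), an M-CAT motif (CATTCC) or a CCAAT box (CCAAT), searched on both strands.
Postn, chr3:54360857-54361156, plus strand: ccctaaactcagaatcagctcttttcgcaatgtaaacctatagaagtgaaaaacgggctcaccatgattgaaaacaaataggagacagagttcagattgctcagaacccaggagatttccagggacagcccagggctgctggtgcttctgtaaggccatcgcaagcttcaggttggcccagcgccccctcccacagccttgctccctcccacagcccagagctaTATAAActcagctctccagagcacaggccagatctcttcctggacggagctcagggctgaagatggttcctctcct
Fbln1, chr15:85205699-85205998, plus strand: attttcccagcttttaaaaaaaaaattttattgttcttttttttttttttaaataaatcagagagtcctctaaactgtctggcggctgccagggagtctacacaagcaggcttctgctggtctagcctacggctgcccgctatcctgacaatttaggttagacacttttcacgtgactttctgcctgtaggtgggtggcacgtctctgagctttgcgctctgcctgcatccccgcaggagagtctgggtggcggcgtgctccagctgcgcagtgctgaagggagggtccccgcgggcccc
Fbln2, chr6:91212514-91212813, plus strand: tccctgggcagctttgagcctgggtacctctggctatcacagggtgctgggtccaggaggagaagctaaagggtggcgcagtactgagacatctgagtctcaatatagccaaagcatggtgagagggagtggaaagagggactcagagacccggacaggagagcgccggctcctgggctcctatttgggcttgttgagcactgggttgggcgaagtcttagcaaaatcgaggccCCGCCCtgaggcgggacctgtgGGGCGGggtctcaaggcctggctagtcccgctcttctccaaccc
Pdpn, chr4:143299515-143299814, minus strand: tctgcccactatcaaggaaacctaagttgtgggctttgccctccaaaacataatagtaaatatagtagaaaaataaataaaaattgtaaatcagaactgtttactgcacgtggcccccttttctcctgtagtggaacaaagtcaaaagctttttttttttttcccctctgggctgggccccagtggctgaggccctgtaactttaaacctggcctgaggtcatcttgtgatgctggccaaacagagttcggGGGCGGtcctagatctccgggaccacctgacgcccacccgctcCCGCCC
The *Postn* window held a TATA box that begins 26 bases before the start, and 13.6% of all 32851 windows of this length held one. The *Fbln2* window, whose start lies 309 bases from the start of the gene in GENCODE, held 2 GC boxes, as did the *Pdpn* window, against 35.7% of all windows with at least 1. None of the motifs marked here was found in the *Fbln1* window. The E-box (CANNTG) was searched too but is not marked, and 72.3% of all windows held it. It began at −81 and 11 bases from the start in the *Fbln1* window. The *Pdpn* and *Fbln2* windows also held it, and the *Postn* window did not. The AP-1, M-CAT and CCAAT motifs stood in 7.81%, 14.7% and 37.4% of all windows and in none of these 4.

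The deposited values are counts that the authors scaled to 20 M per library, and they are given here per M reads on genes (RPM). An estimated 17.59 to 30.86 M reads on genes stood behind each library, so that 3 reads correspond to 0.0972 to 0.171 RPM, for counting error only. All 9 genes were read in every library, at 4.1 RPM or more, and were among the 14706 genes tested. Collagen and other fibroblast genes (*Col1a1*, *Col1a2*, *Col3a1*, *Pdgfra*, *Dpt*, *Prrx1*, *Twist2*) were also read in all 8 libraries. *Ccrl2* itself was at 3.1 to 4.25 RPM in B16 and 5.15 to 11.45 RPM in LLC pools, with no difference between hosts that passed the test (adjusted p = 0.840 and 0.815 from limma). Melanocyte genes summed to 13817 RPM or more in each B16 pool and to 1.2 RPM or less in each LLC pool, as the labels of the tumors require. Some libraries stood apart. B16 WT pool 1 held skeletal muscle transcripts (767 RPM in sum, against 3.45 to 5.65 RPM in the other 7 libraries). Y-linked *Ddx3y* was read in both LLC KO pools (31.0 and 34.9 RPM) and in no other library. Whether these reads came from the hosts or from the grafted cells was not tested. Sex of the LLC hosts, or a difference between the grafted cells, therefore cannot be told apart from genotype. *Lars2* was at 1194 and 1362 RPM in the LLC WT pools, against 70.75 to 163 RPM in the other libraries. *Mir6236* stood at 236 and 287 RPM there, against 5.2 to 12.6 RPM elsewhere. Only for the LLC WT pools did rounding up match the deposited values best. Their estimated depths were 30.86 and 28.49 M reads, while those of the LLC KO pools were 20.06 and 17.59 M. A difference in processing between the LLC WT and KO pools therefore cannot be told apart from genotype, and its part was not tested.

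Of the 9 genes, 8 were higher in LLC than in B16 tumors, and *Fbln1* was higher in B16. Decorin transcripts were at 253 and 304 RPM in B16 WT, 143 and 217 RPM in B16 KO, 850.4 and 1287 RPM in LLC WT and 1663 and 1634 RPM in LLC KO. Every LLC pool thus lay above every B16 pool, and the mean of the 4 LLC pools was 5.93-fold that of the 4 B16 pools (1359 ± 379 against 229 ± 67.7 RPM, SD, n = 4). This SD is taken over pools of both hosts and so includes any host effect. The log2 fold change of *Dcn*, taken as in all tests on log2(RPM + 0.5), was 2.57 (standard error 0.17, adjusted p = 3.25e-06 from limma). Levels of *Lum* were 61.35 and 72.6 RPM in B16 WT, 37.35 and 46.55 RPM in B16 KO, 218 and 387 RPM in LLC WT and 280.05 and 235 RPM in LLC KO, a 5.14-fold difference between tumors. The ratio was 7.0 for *Postn*, 5.18 for *Mfap5*, 4.70 for *Fbln2*, 3.81 for *Pdpn*, 3.46 for *Fap* and 2.75 for *Thy1*. These ratios take both hosts together. Mean *Postn* was 613 RPM in LLC against 66.1 RPM in B16 for WT hosts, and 101 against 36.0 RPM for KO hosts. Mean *Thy1* was 298 against 78.6 RPM for WT hosts and 103 against 67.0 RPM for KO hosts. For *Dcn* and *Lum* the ratio was larger in KO hosts. For each of the 8 genes higher in LLC, the LLC and B16 pools did not overlap. The p was 0.0286 in a two-sided exact permutation test, run without regard to host and not adjusted. This is the lowest p for 4 pools against 4. Limma called all 8 (an adjusted p under 0.05, by Benjamini-Hochberg over all tested genes). As 39.9% of all tested genes were called higher in LLC and 37.7% lower, calls between the tumor lines were frequent. The share of all tested genes whose pools did not overlap between the lines was not counted. Reads from tumor cells and from stroma are mixed in bulk tumors, and fewer cells of a type cannot be told apart from less RNA per cell.

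*Fbln1* went the other way. Its pools read 193.5 and 181 RPM in B16 WT, 209 and 199 RPM in B16 KO, 85.15 and 101 RPM in LLC WT and 33.2 and 40.35 RPM in LLC KO. All 4 B16 pools lay above all 4 LLC pools, with a mean 3.02-fold higher (log2 fold change of LLC over B16 −1.74, standard error 0.08, adjusted p = 5.31e-07 from limma, and p = 0.0286 in the exact permutation test). *Fbln5*, another fibulin, which binds elastin, also stood higher in B16, at 348 to 433 RPM against 7.65 to 63.8 RPM in LLC (log2 fold change −4.34, adjusted p = 6.00e-06 from limma). Of the 17 fibulins, fibrillins and other elastic fiber genes outside the 9, 15 were called higher in LLC and only *Fbln5* and *Hmcn1* (hemicentin 1, −2.43) lower. All 9 calls between tumor lines held under each alternative that was run.

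**Figure D1:**
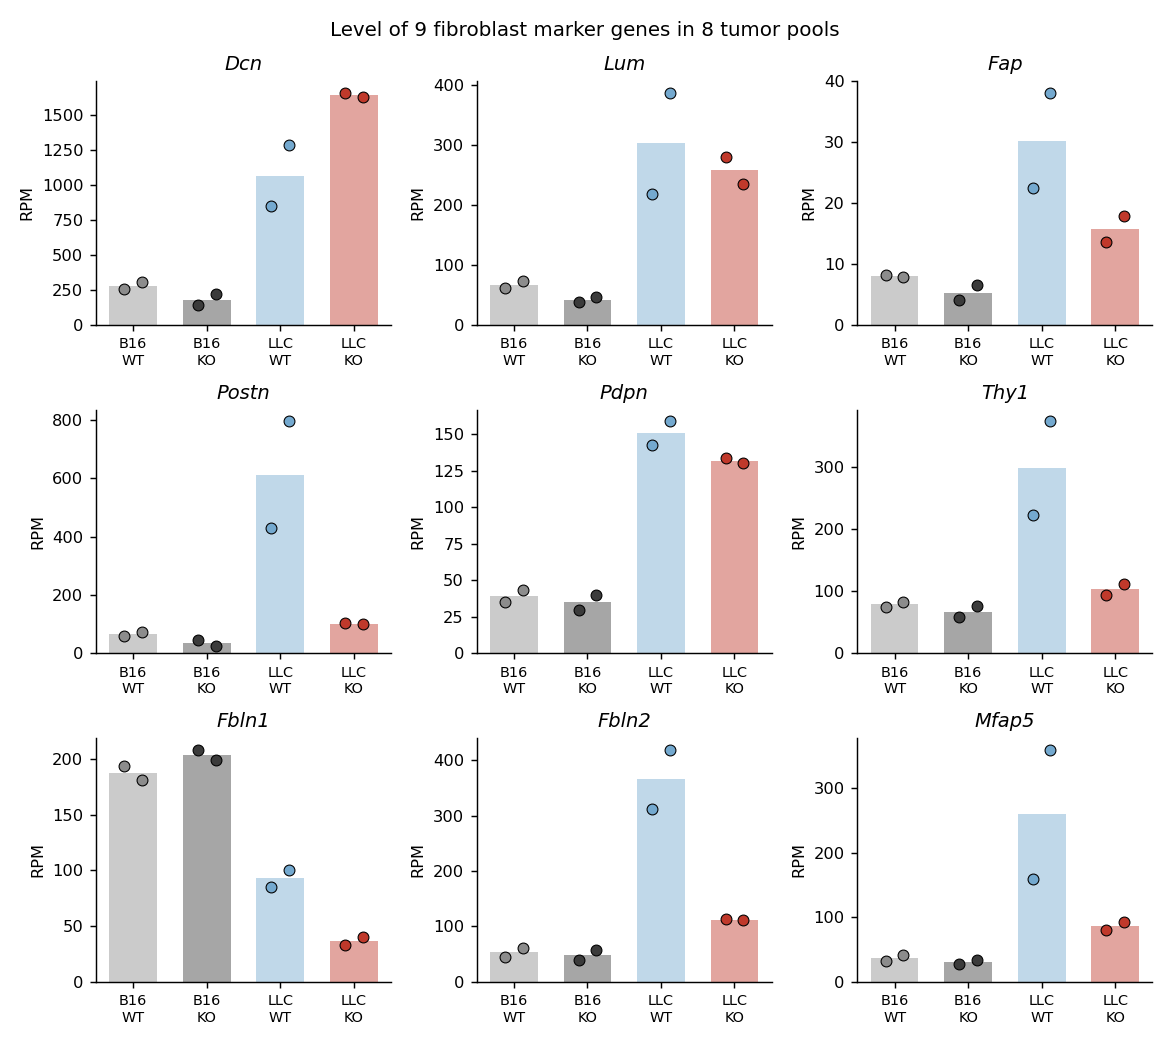
Level of each gene in RPM (y axis, from 0, with its own scale per gene) in the 4 groups (x axis); points are pools and bars are means of 2 pools. *Postn*, *Thy1*, *Fbln2* and *Mfap5* stood high in LLC WT and low in LLC KO, *Dcn* was highest in LLC KO (1663 and 1634 RPM), and *Fbln1* was highest in B16.

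Levels per length of transcript, taken over the exons annotated for each gene, put *Dcn* first among the 9 genes in B16 WT, LLC WT and LLC KO, at 47.7, 183 and 282 RPM per kb. In B16 KO the first was *Fbln1*, at 46.7 RPM per kb against 30.8 RPM per kb for *Dcn*. *Fbln1* was second in B16 WT (42.9 RPM per kb) and eighth in both LLC groups (21.3 and 8.42 RPM per kb). *Lum*, second in both LLC groups, was at 124 RPM per kb in LLC WT and 105 RPM per kb in LLC KO. *Fap* was the lowest of the 9 genes in all groups, between 0.936 and 5.35 RPM per kb. Neighbors in this order were often closer than their pools: in LLC WT, *Postn* (49.4 and 91.5 RPM per kb) and *Mfap5* (44.3 and 100.3 RPM per kb) overlapped with *Fbln2* (49.1 and 65.9 RPM per kb) and with *Pdpn* (78.6 and 87.5 RPM per kb).

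The loss of *Ccrl2* in the host is 1 question of the study, which also knocked out and overexpressed the gene in tumor cells. Here the host effect was asked within each tumor line. In LLC tumors, 6 of the 9 genes were lower in *Ccrl2* KO than in WT mice and none was called higher, while *Dcn*, *Lum* and *Pdpn* did not pass the test. Over all tested genes 23.1% were called lower and 15.1% higher in this comparison (3402 and 2226 genes). This balance turned with the scaling, with 2410 lower and 2904 higher by TMM factors, which set library sizes from the bulk of genes by a trimmed mean of ratios, and 2439 lower and 2840 higher by the median of ratios. The median log2 fold change of the 9 genes was −1.33 and that of all tested genes was −0.10. In 7 of the 9 genes both KO pools lay below both WT pools, a pattern seen in 42.0% of all tested genes.

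Among the matrix genes, *Postn* had the largest fold change. Periostin transcripts were at 429.85 and 796 RPM in LLC WT and 104 and 98.75 RPM in LLC KO. Both KO pools lay near each other and far below the lower WT pool, and the means, 613 ± 259 and 101 ± 3.75 RPM (SD, n = 2), differed 6.05-fold. The log2 fold change was −2.52 (standard error 0.31, adjusted p = 0.00170 from limma).

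Both fibulins of the set fell. *Fbln2* went from 313 and 419.5 RPM in LLC WT to 113 and 111 RPM in LLC KO, a 3.27-fold difference of the means. Its log2 fold change was −1.69 (standard error 0.22, adjusted p = 0.00198 from limma). *Fbln1*, at 85.15 and 101 RPM in LLC WT and 33.2 and 40.35 RPM in LLC KO, was 2.53-fold lower. Its log2 fold change of −1.33 had the smallest standard error of the 9 genes (0.11, adjusted p = 5.24e-04 from limma).

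*Mfap5* was read at 159 and 360.05 RPM in LLC WT and at 80.9 and 92.9 RPM in LLC KO, and its WT pools differed more from each other than those of any other gene of the set (2.26-fold). The means differed 2.99-fold and the log2 fold change was −1.46 (standard error 0.33, adjusted p = 0.0128 from limma). Without LLC KO pool 1 the adjusted p was 0.0677, and without LLC WT pool 2 the log2 fold change was −0.87.

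At the cell surface, *Thy1* and *Fap* fell. *Thy1* was at 222 and 373 RPM in LLC WT and at 93.25 and 112 RPM in LLC KO, 2.90-fold lower (log2 fold change −1.49, standard error 0.23, adjusted p = 0.00361 from limma). Markers of T cells, which also carry THY1 in mice, were lower too: 5 of 8 passed the filter and all 5 were called lower, among them *Lck* (−1.98), a kinase of the T cell receptor, *Cd3g* (−1.32), one of the receptor's chains, and *Cd4* (−1.59), the coreceptor of helper cells. The 8 markers together summed to 15.4 and 12.6 RPM in LLC WT and 2.05 and 4.1 RPM in LLC KO, and *Cd3e* was at 0.65 and 0.4 RPM in LLC WT and at 0 and 0.05 RPM in LLC KO. The part of T cells in the fall of *Thy1* was not tested.

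*Fap* was at 22.4 and 38.15 RPM in LLC WT and at 13.6 and 17.9 RPM in LLC KO, 1.92-fold lower, and its call was the weakest of the 6 (log2 fold change −0.89, standard error 0.29, adjusted p = 0.0433 from limma). The call was lost without either B16 WT pool (0.0740 each), LLC WT pool 2 (0.190, with a log2 fold change of −0.51), LLC KO pool 1 (0.198) or LLC KO pool 2 (0.0685), and with TMM scaling (0.0724). Of 4 relatives of FAP among the prolyl peptidases, *Dpp9* was called lower (−0.26, adjusted p = 0.0243 from limma), and *Dpp4*, *Dpp8* and *Prep* did not pass the test.

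*Pdpn* did not pass the test. Podoplanin transcripts were at 143 and 159 RPM in LLC WT and at 134 and 130.35 RPM in LLC KO, with both KO pools just below both WT pools. The log2 fold change was −0.19 with a 95% confidence interval of −0.53 to 0.15 (adjusted p = 0.334 from limma), and no alternative that was run called it. Of 5 lymphatic endothelial markers 3 were tested: *Lyve1*, a hyaluronan receptor that macrophages can also carry, was higher in LLC KO (2.59), *Flt4*, a receptor of lymphatic growth factors, was lower (−1.87), and *Prox1*, which specifies lymphatic endothelium, was at 0.3 and 0.2 RPM in LLC WT and 0 and 0.05 RPM in LLC KO. *Mmrn1*, another lymphatic gene, was at 0.05 RPM or less in all LLC pools.

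The proteoglycan genes *Dcn* and *Lum* stood apart from the genes that fell. *Dcn* was at 850.4 and 1287 RPM in LLC WT and at 1663 and 1634 RPM in LLC KO, so that both KO pools were above both WT pools and the mean was 1.54-fold higher. The log2 fold change was 0.66 (95% confidence interval 0.11 to 1.20, adjusted p = 0.0605 from limma), which did not pass the threshold. It passed with TMM scaling (0.75, adjusted p = 0.0475) and median-of-ratios scaling (0.74, adjusted p = 0.0484), and without B16 KO pool 1 (0.0444), B16 KO pool 2 (0.0438) or LLC WT pool 2 (0.95, adjusted p = 0.0193). *Lum*, at 218 and 387 RPM in LLC WT, had both KO pools (280.05 and 235 RPM) between the WT pools. Its log2 fold change of −0.18 had an interval of −0.76 to 0.40 (adjusted p = 0.597 from limma). The sign of *Lum* turned with the WT pool that was kept, at −0.59 without LLC WT pool 1 (adjusted p = 0.0312) and 0.23 without LLC WT pool 2 (adjusted p = 0.317).

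In all 9 genes LLC WT pool 2 was above LLC WT pool 1, by 1.11-fold (*Pdpn*) to 2.26-fold (*Mfap5*), while the median of all tested genes for the same ratio was 0.964. The LLC KO pools had ratios of pool 2 to pool 1 between 0.838 (*Lum*) and 1.32 (*Fap*), closer than the LLC WT pools for each gene except *Fbln1* (1.22 in KO against 1.18 in WT). For vascular markers it was the KO pools that differed. Genes of mural cells, the pericytes and smooth muscle cells of vessels, summed to 262 and 213 RPM in LLC WT and to 31.35 and 118 RPM in LLC KO, with 3 of 8 called lower. Blood endothelial genes summed to 251 and 207 RPM in LLC WT and to 15.8 and 73.05 RPM in LLC KO, with 6 of 7 called lower. Adipocyte genes differed most between the KO pools, at 2.55 and 48.75 RPM in sum, against 27.1 and 19.1 RPM in LLC WT, and none of the 5 was called. The 6 macrophage genes summed to 2199 and 2792 RPM in LLC WT and to 2197 and 2758 RPM in LLC KO, with *Csf1r*, the receptor of a macrophage growth factor, called lower (−0.93, adjusted p = 0.0212 from limma) and *Mrc1*, the mannose receptor, called higher (0.65, adjusted p = 0.0182 from limma). The part of these cell types in the fall of the 6 genes was not tested.

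In B16 tumors none of the 9 genes was called between hosts. The share of all tested genes called was 0.0%, with 1442 genes at an unadjusted p under 0.05 and a smallest adjusted p of 0.202 (limma). The fold changes of 8 of the 9 genes were below 0, as were those of 9055 of the 14706 tested genes. The median was −0.29 for the 9 genes and −0.05 for all tested genes (0.005 for all tested genes with TMM scaling). Before adjustment, 3 of the 9 passed 0.05 in limma, all below 0: *Postn* (log2 fold change −0.91, unadjusted 0.0194), *Dcn* (−0.65, 0.0250) and *Lum* (−0.67, 0.0283). By comparison, 6.85% of all tested genes were lower at this level. The smallest adjusted p of the 9 was 0.461. *Postn* read 60.9 and 71.35 RPM in the B16 WT pools and 45.4 and 26.6 RPM in B16 KO. *Fap*, at 8.15 and 7.85 RPM in WT and 4.1 and 6.5 RPM in KO (−0.58), did not overlap between hosts either. With *Dcn*, *Lum* and *Postn* it made 4 genes whose KO pools were both below the WT pools, against 31.1% of all tested genes.

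The other 5 genes overlapped between the B16 hosts or, for *Fbln1*, were higher in KO. *Thy1* read 73.95 and 83.2 RPM in the WT pools and 58.4 and 75.55 RPM in KO, a log2 fold change of −0.24 (95% confidence interval −0.78 to 0.31). *Pdpn* was at 35.4 and 43.2 RPM in WT and 29.9 and 39.9 RPM in KO (−0.18, −0.52 to 0.17). For *Fbln2* the pools were at 45.4 and 60.85 RPM in WT and 39.05 and 58.15 RPM in KO (−0.14, −0.65 to 0.37). These 2 turned above 0 in fits that left out 1 B16 pool: *Pdpn* without KO pool 1 (0.03), and *Fbln2* without WT pool 2 (0.07) or KO pool 1 (0.14). *Mfap5*, at 32.65 and 41.1 RPM in WT and 26.75 and 33.3 RPM in KO, had a fold change of −0.29 with a wide interval (−1.06 to 0.48). The *Fbln1* change was 0.12 (−0.14 to 0.39). A lack of a call in 2 pools against 2 does not show that the hosts are alike. Vascular markers had median log2 fold changes of −1.52 (7 blood endothelial genes) and −1.40 (8 mural genes), none of them called, and their part was not tested.

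**Figure D2:**
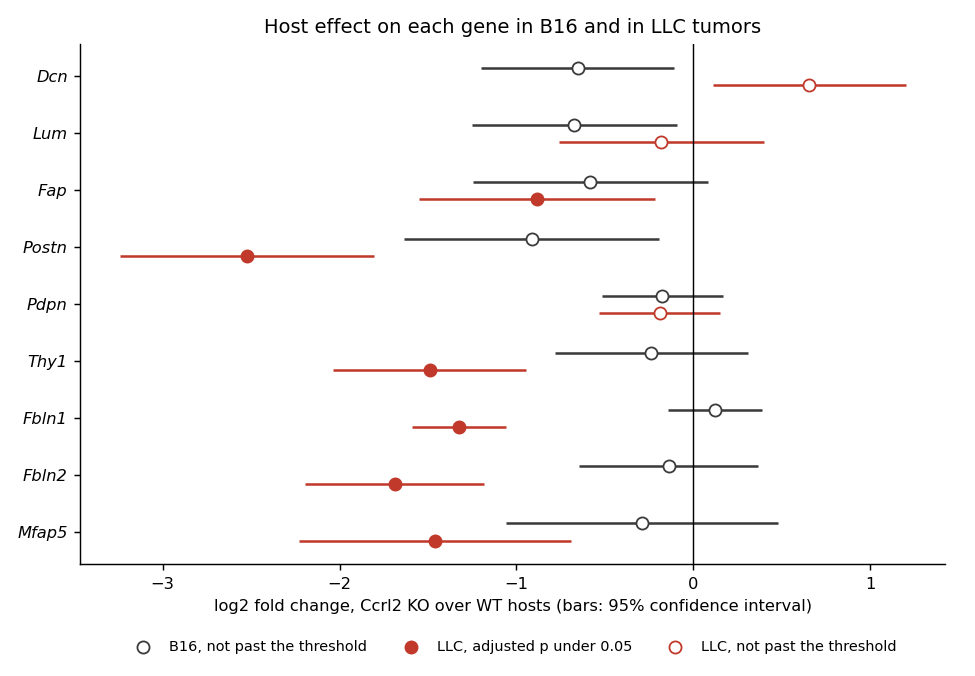
Log2 fold change of *Ccrl2* KO over WT hosts (x axis) for each gene (y axis) in B16 and in LLC tumors; bars are 95% confidence intervals from limma and filled points have an adjusted p under 0.05. The 6 filled points are all LLC, from −0.89 for *Fap* to −2.52 for *Postn*, and *Dcn* lies at −0.65 in B16 and 0.66 in LLC.

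With both tumors weighted equally, the same 6 genes, *Postn* (−1.72), *Fbln2* (−0.91), *Mfap5* (−0.88), *Thy1* (−0.86), *Fap* (−0.73) and *Fbln1* (−0.60), were called lower in KO hosts, with adjusted p between 0.00513 and 0.0383 from limma. In B16 alone none of the 6 was called, at −0.91, −0.14, −0.29, −0.24, −0.58 and 0.12 in the same order. A call in the average therefore does not show a fall in each tumor. Over all tested genes 14.9% were called lower in this average (2192 lower and 1194 higher, against 1177 and 1791 with TMM scaling). *Lum* was at −0.43 (adjusted p = 0.115), *Pdpn* at −0.18 (adjusted p = 0.226), and the average of *Dcn* was 0.00 (95% confidence interval −0.39 to 0.39), as its effects in B16 and LLC had opposite signs. The calls of *Fap* and *Mfap5* were lost with TMM scaling (adjusted p = 0.0626 and 0.0563), and *Thy1* was not called without B16 WT pool 1 (0.0517), B16 WT pool 2 (0.0621) or LLC KO pool 1 (0.0513). *Fap* was called only without LLC WT pool 1 among the fits that left out 1 library, where its adjusted p was otherwise 0.0541 to 0.115, and *Mfap5* only without an LLC WT pool, where it was otherwise 0.0699 to 0.119. Without LLC WT pool 1, *Lum* was called lower too (−0.63, adjusted p = 0.0100).

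Whether the host effect differed between LLC and B16 was tested as the difference of the 2 effects. It passed for 5 genes. The LLC effect was below the B16 effect for *Postn* (difference −1.61, standard error 0.44, adjusted p = 0.0467), *Fbln2* (−1.55, 0.31, 0.0215), *Fbln1* (−1.45, 0.16, 0.00439) and *Thy1* (−1.25, 0.33, 0.0435), and above it for *Dcn* (1.31, 0.33, 0.0390), all from limma. Over all tested genes 7.05% were called below and 8.15% above. *Mfap5* (−1.17, adjusted p = 0.126), *Lum* (0.49, adjusted p = 0.361), *Fap* (−0.30, adjusted p = 0.632) and *Pdpn* (−0.01, adjusted p = 0.970) did not pass, and the sign of *Pdpn* turned with TMM scaling (0.02). Of the 5 calls, *Fbln1* alone was kept in all 8 fits that left out 1 library. The other calls were lost without B16 WT pool 1 (*Dcn* 0.0933, *Fbln2* 0.0786, *Thy1* 0.139 and *Postn* 0.147, as adjusted p), B16 WT pool 2 (0.138, 0.0535, 0.115 and 0.120), LLC KO pool 1 (0.107, 0.0684, 0.126 and 0.111) or LLC KO pool 2 (0.0947, 0.0622, 0.0805 and 0.113). Without B16 KO pool 1, *Dcn* (0.112), *Thy1* (0.0831) and *Postn* (0.133) were lost, without B16 KO pool 2 *Thy1* (0.123) and *Fbln2* (0.0511), and without LLC WT pool 2 *Postn* (0.0642). In the opposite sense, *Mfap5* passed without LLC WT pool 1 (−1.76, adjusted p = 0.00459) and *Lum* without LLC WT pool 2 (0.90, adjusted p = 0.0363).

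Summed over the 9 genes, the level was 765 and 865 RPM in B16 WT, 592 and 703 RPM in B16 KO, 2442 and 3921 RPM in LLC WT and 2515 and 2472 RPM in LLC KO. The sums of the LLC KO pools thus lay just inside the range of the LLC WT pools, while their make-up differed. *Dcn* took 26.3 and 25.1% of the summed RPM per kb in LLC WT and 50.3 and 50.7% in LLC KO. The share of *Postn* was 8.92 and 10.4% in LLC WT against 2.11 and 2.06% in LLC KO, and that of *Thy1* was 13.4 and 14.2% against 5.5 and 6.76%. *Pdpn*, at 14.2 and 9.97% in WT and 13.0 and 13.0% in KO, and *Lum*, at 16.1 and 18% in WT and 20.2 and 17.4% in KO, kept similar shares. In B16 *Fbln1* took 24.4 and 20.2% in WT and 33.4 and 26.6% in KO, and 3.52% or less in any LLC pool. Set against *Dcn* in the same library, *Postn* RPM was 0.506 and 0.619 of *Dcn* RPM in LLC WT, 0.0626 and 0.0604 in LLC KO, 0.240 and 0.235 in B16 WT and 0.318 and 0.123 in B16 KO. A ratio within a library does not change with its scaling.

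**Figure D3:**
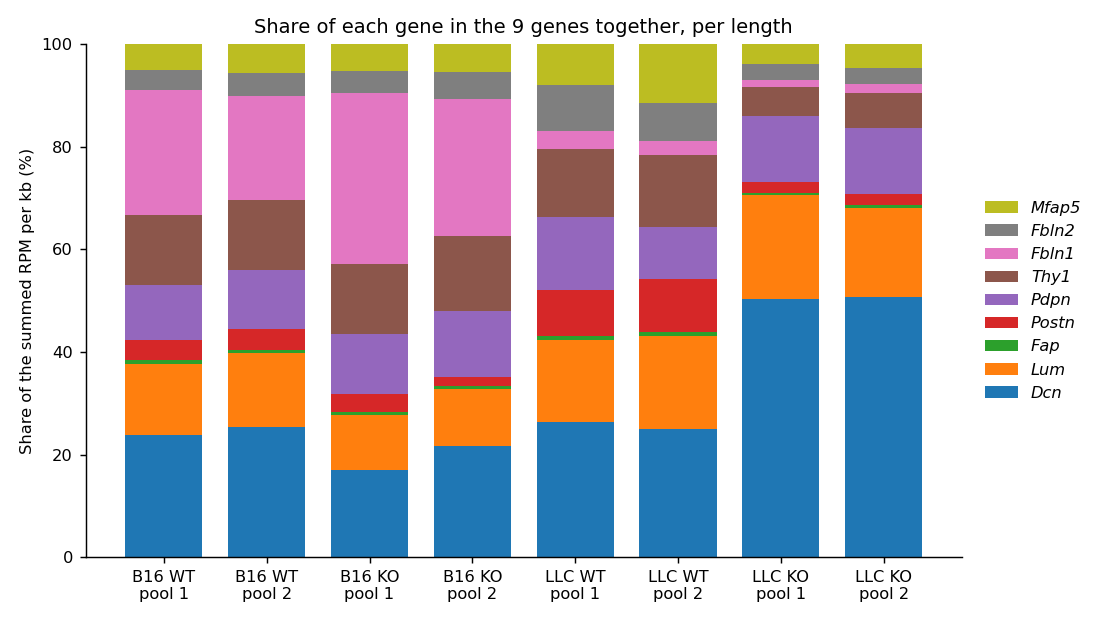
Share of each of the 9 genes in their summed RPM per kb (y axis, %) in each of the 8 pools (x axis). *Dcn* takes about the same share in B16 WT and LLC WT and the largest in LLC KO (50.3 and 50.7%), and *Fbln1* takes 20.2 to 33.4% in B16 pools and 3.52% or less in LLC pools.

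Across the 8 libraries, after the mean of each tumor line was subtracted from log2(RPM + 0.5), the levels of the genes were set against each other, as a description. The difference between the LLC hosts remains in these values, so that genes that fell in LLC KO are bound to correlate. Pearson's r was 0.982 between *Thy1* and *Mfap5*, 0.972 between *Thy1* and *Fbln2* and 0.864 or more for every pair of *Postn*, *Thy1*, *Fbln1*, *Fbln2* and *Mfap5*. *Fap* had r between 0.700 (*Fbln1*) and 0.903 (*Mfap5*) with these 5 genes. The neighbors *Dcn* and *Lum* had r = 0.644, and *Dcn* had r = −0.600 with *Fbln1* and −0.314 with *Postn*. These values describe 8 libraries in which host groups, depth and the pools that stand apart are shared by all genes. Among the genes with the highest mean r to the 9, over the same 8 libraries, were *Rcan2* (0.776), *AW551984*, *Ptpn13*, *Mrc2*, *Larp6*, *Peli2*, *Ebf1*, *Apobec1* and *Tnfaip8l2* (0.762). Their r with *Dcn* was −0.09 to 0.209, which follows in part from the choice by the mean over 9 genes of which 6 fell. *Mrc2*, an endocytic receptor of collagen, was at 136.5 and 196 RPM in LLC WT and at 117 and 110.6 RPM in LLC KO (log2 fold change −0.52).

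Other genes of the same families showed both directions in LLC, where 23.1% of all tested genes were called lower and 15.1% higher in KO. Of 13 other small leucine-rich proteoglycans 10 were tested, of which 3 were called lower and 2 higher in LLC KO, with a median log2 fold change of −0.06. Of those called higher, *Kera* passed the filter through the LLC KO pools alone, so that its call is no evidence of a direction. Biglycan (*Bgn*), the closest relative of decorin, was at 608 and 602 RPM in LLC WT and at 107 and 120.35 RPM in LLC KO (−2.41, adjusted p = 6.16e-05 from limma). *Bgn* therefore fell 5.32-fold in the same pools in which *Dcn* was 1.54-fold higher. *Kera*, next to *Dcn* and *Lum* on chromosome 10, was at 0.4 and 0.4 RPM in LLC WT and at 3.05 and 2.8 RPM in LLC KO, and at 0 in all B16 pools. *Ecm2*, a matrix protein with leucine-rich repeats, fell as well (−0.83, adjusted p = 0.0277 from limma).

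Of the 17 other fibulins, fibrillins and elastic fiber genes, 7 were lower and 2 higher in LLC KO, with a median of −0.58. *Mfap2*, which encodes the other microfibril-associated glycoprotein of the *Mfap5* family, was at 41.1 and 75 RPM in LLC WT and 16.95 and 22.35 RPM in LLC KO (−1.49, adjusted p = 0.00586 from limma). *Loxl1*, a lysyl oxidase that crosslinks elastin, was lower by a similar factor (−1.42, adjusted p = 0.00527), whereas *Ltbp3*, a binding protein of latent TGF-β, was higher (0.64, adjusted p = 0.00120). The 22 other fibroblast markers had 4 genes lower and 4 higher, with a median of −0.19, against shares of 23.1% and 15.1% over all tested genes. *Lrrc15*, a surface protein of tumor fibroblasts (−1.09, adjusted p = 0.00656), and *Sparc*, a collagen-binding matricellular protein (−0.97, adjusted p = 0.0116), were lower. Vimentin (*Vim*), an intermediate filament protein that many tumor cells also make, was higher (0.83, adjusted p = 0.00281). *Pdgfra*, a receptor that marks fibroblasts, was at 127 and 183.5 RPM in LLC WT and 156 and 141 RPM in LLC KO (−0.04, adjusted p = 0.922). Of 8 fibroblast collagens 4 were lower, *Col1a1* the most (−1.71, adjusted p = 0.00201), and 2 were higher, with *Col6a1* at 1.09 (adjusted p = 0.00354), all adjusted p from limma. In B16 none of these genes was called, and the medians of the 4 lists were between −0.27 and −0.58.

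**Figure D4:**
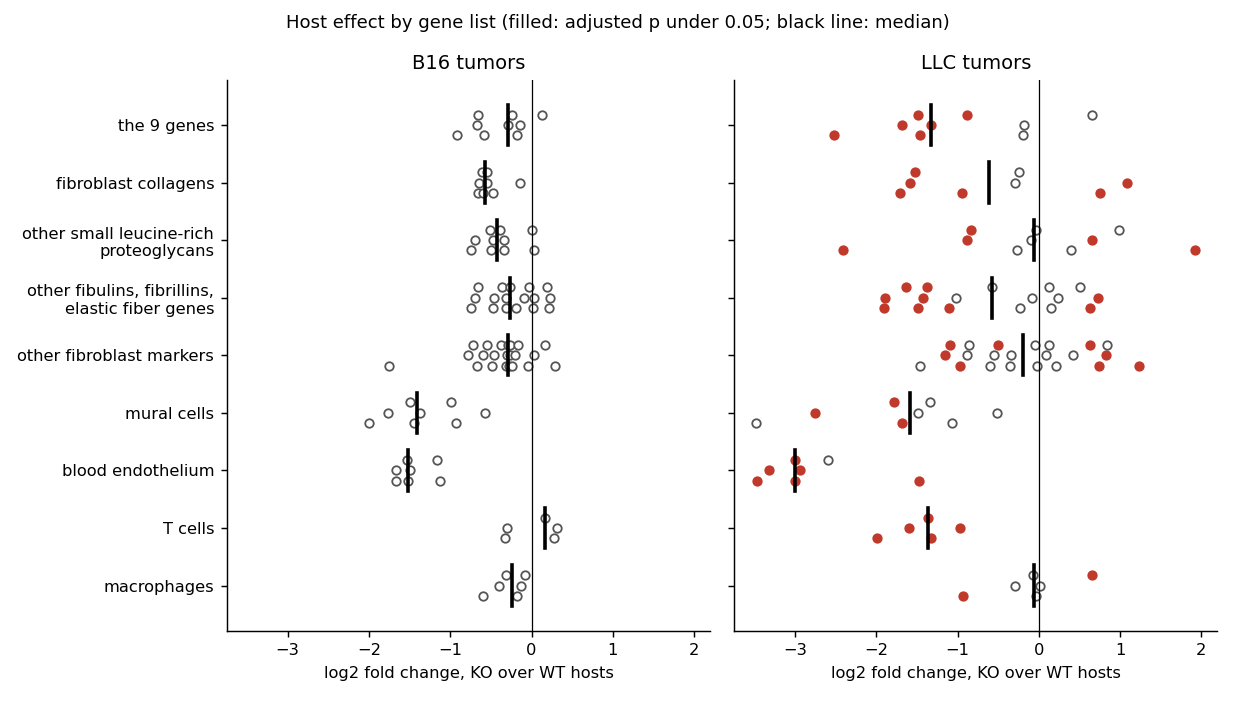
Log2 fold change of KO over WT hosts (x axis) of each tested gene (points) by gene list (y axis) in B16 and in LLC tumors; filled points have an adjusted p under 0.05 and black lines are medians. The 9 genes have a median of −1.33 in LLC, against −0.19 for the 22 other fibroblast markers, −0.62 for 8 collagens and −2.99 for 7 blood endothelial genes.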

How the data were processed

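RNA was extracted from pools of 3 tumors and sequenced from TruSeq libraries as paired reads. The authors processed the reads with Trimmomatic and STAR on GRCm38.p4 and counted them per gene with HTSeq, with versions not given in the sources used here, and counting is not stated to use strand. The deposited values are a score made by the authors, counts scaled to 20 M per library and rounded to whole numbers. They were divided by 20 to give RPM. As the authors' own tool, EdgeR on Degust, needs counts, limma 3.58.1 (R 4.3.3) was used instead.

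A gene was kept if 2 or more of the 8 libraries had 1 RPM or more. Values as log2(RPM + 0.5) entered limma, whose prior variance followed a mean trend, in 1 model of 4 groups (4 residual and 3.68 prior degrees of freedom), and calls needed an adjusted p under 0.05 (Benjamini-Hochberg, over all 14706 genes). Exact permutation tests were run in Python 3.11.15 with scipy 1.17.1. Nothing says that pools are separate experiments, so p-values measure the spread between pools only.

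The 9 genes and all gene lists were chosen with earlier results of these data known. Besides the 9 genes, the text names up to 3 genes per list with the smallest adjusted p in LLC, tissue markers, and the 10 genes most correlated with the 9, of which 1 is not reported here. *Fbln5*, *Hmcn1*, *Pdgfra*, *Mmrn1*, *Cd3e* and the genes of libraries that stand apart were named after their values were seen. Gene positions and exon lengths come from GENCODE release 21, in which 98.9% of the identifiers were found, and promoters from RefSeq. Depth was estimated from the spacing of low values and is uncertain for LLC KO pool 1, where 1 read stood for 0.997 deposited units. The fit was poorest for LLC KO pool 2, with a misfit (deviance) of 578.9 against 138.6 to 243.8 in the other libraries. The code was tested on simulated data. The alternatives changed the pseudocount (0.05 or 2 RPM) and the filter (none, or 5 RPM), and used TMM and median-of-ratios scaling, each tumor fitted alone, a replicate block, and libraries left out.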

Additional observations from a re-analysis of the deposited data

Results flagged for a closer look

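For 5 of the 9 genes the host effect differed between the tumors by the test of the difference itself (LLC effect minus B16 effect, log2, from limma), where 7.05% of all tested genes were called below and 8.15% above. Of the 5 calls, *Fbln1* alone was kept in all 8 fits that left out 1 library. The difference was −1.61 for *Postn*, which fell by 2.52 in LLC and was at −0.91 in B16, and −1.55 for *Fbln2*, at −1.69 in LLC and −0.14 in B16. It was −1.45 for *Fbln1*, at −1.33 in LLC and 0.12 in B16, and −1.25 for *Thy1*, at −1.49 in LLC and −0.24 in B16. *Dcn* had the opposite sign, with a difference of 1.31 between 0.66 in LLC and −0.65 in B16, neither of which passed the test alone. Genotype, sex, any difference between the grafted cells and any difference in processing of the pools could not be separated in LLC. The part of each was not tested.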

How the results depend on the processing

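All 9 calls between tumor lines, and the absence of calls among the 9 genes in B16, held under every alternative that gave a value. In LLC KO against WT, where 6 of the 9 were called, *Fbln1* was called in 17 of 17 alternatives, *Postn* and *Fbln2* in 16, *Thy1* in 15, *Mfap5* in 14 and *Fap* in 6, and *Dcn* passed as higher in 6. With no filter 3 were called in LLC, 0 in the average (6 called in the main analysis) and 1 in the difference (5 called). With B16 WT pool 1 and LLC KO pool 1 both left out, 1 was called in LLC (*Fbln1*, adjusted p = 0.0390 from limma), 0 in the average and 0 in the difference. TMM scaling left 3 in the difference. With each library left out in turn, counts were 4 to 7 in LLC, 3 to 7 in the average and 1 to 6 in the difference. The lone pool of a group is then assumed to vary like the others. The cause was not tested.

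Some signs turned. Leaving out 1 library, the log2 fold change ranged from −0.42 to 0.14 for *Fbln2* and −0.38 to 0.0285 for *Pdpn* in B16, −0.59 to 0.23 for *Lum* in LLC, −0.15 to 0.15 for *Dcn* in the average, and −0.68 to 0.0751 for *Fap* and −0.22 to 0.19 for *Pdpn* in the difference. The average of *Dcn* was also 0.00 (just below 0) with a pseudocount of 0.05 RPM and −0.0712 without both pools. The *Pdpn* difference was 0.0185 with TMM scaling, 0.0044 with median-of-ratios scaling and 0.11 without both pools.

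Over all tested genes, calls in LLC were 5628, against 2335 with no filter, 3292 with each tumor alone, 398 without both pools and 2613 to 5580 with 1 library left out. The average had 3386, against 887, 1 (without both pools) and 811 to 4028, and the difference had 2236, against 692, 0 and 318 to 3616. B16 had 0, against 139 with no filter and 11 without B16 WT pool 2.

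The methods name no pairing of pools by replicate number. Over 14706 genes, the difference between pools 1 and 2 correlated between groups at −0.03 to 0.308, highest for B16 KO with LLC WT. Between the hosts of a tumor line the correlation was 0.058 in B16 and −0.03 in LLC. With the replicate block, 7 of the 9 were called in LLC (*Dcn* added as higher, adjusted p = 0.0156), 6 in the average, 5 in the difference (*Postn* lost at 0.0515, *Mfap5* gained at 0.0431), 0 in B16 and 9 between tumors. Exact permutation tests were not run with a library left out, as 4 against 3 pools cannot go below 0.0571, and each tumor alone gives no contrast between tumors.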
